A study of Oryza sativa with 9 samples.

Results

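Starch synthases build the glucan chains of starch, and 10 genes of this enzyme family were followed in developing rice seeds of 3 genotypes. The members are the rows of the deposited table whose locus identifier belongs to a starch synthase gene: GBSSI, GBSSII, SSI, SSIIa, SSIIb, SSIIc, SSIIIa, SSIIIb, SSIVa and SSIVb. All 10 were found among the 31263 loci of the table. The study asked how mutation of OsTudor-SN, a protein that binds RNA, changes the transcripts of the seed.

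Dehulled seeds, 10 to 14 days past flowering, gave the RNA. Growth chambers were kept at 27 °C and lit for 12 h, then dark for 12 h. The wild type, with 3 libraries, is the control, and its cultivar is not stated in the labels. EM1084, with 3 libraries, is 1 mutant line whose OsTudor-SN protein carries E503K. The third genotype, pHL8042/EM1084, with 3 libraries, is EM1084 transformed with a wild type OsTudor-SN copy, and is called the complemented line. It keeps the EM1084 background, and the labels state neither the promoter of its transgene nor how many independent transformants it stands for. The repeats are described as biological, but what separates them (plants, panicles or pools of seeds) is not stated.

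All starch synthases move glucose from ADP-glucose onto the end of a growing glucan chain. Granule-bound starch synthase (GBSS) makes the nearly unbranched amylose inside the granule, while the soluble classes SSI, SSII and SSIII, together with branching and debranching enzymes, make the branched amylopectin. In rice endosperm, the tissue that stores the starch of the grain, GBSSI, SSI, SSIIa and SSIIIa are the known main forms, and GBSSII, SSIIb and SSIIIb are better known from leaves and other non-storage tissues.

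Levels are given in RPKM, read numbers divided by transcript length and by the mapped reads of the library, so genes of a library can be compared with each other. The libraries held 5778627 to 18449248 mapped reads as derived from the RPKM steps, and the 3 wild type libraries (5778627 to 10551055) were the shallowest. Storage protein genes took 53.3% to 58.3% of the mapped reads in wild type, 31.3% to 31.9% in EM1084 and 42.6% to 47.2% in the complemented line, so the other genes divided different remainders. Over the 15450 genes tested the median log2 change against wild type was 1.06 for EM1084 and 0.73 for the complemented line. With EM1084 as the baseline, the median of the complemented line was -0.34. Median-of-ratios scaling brought these 3 medians to 0.10, 0.10 and -0.01, quantile normalization to 0, and scaling to the reads outside the storage protein genes to 0.61, 0.52 and -0.09. OsTudor-SN transcripts stood at 88.4 to 97.6 RPKM in wild type, 206 to 221 in EM1084 and 348 to 389 in the complemented line. A single amino acid change need not alter a transcript level, so these values do not check the EM1084 label. Of 5 endosperm marker genes, all were among the tested genes, and their summed level was 99528 to 109041 RPKM in wild type, 41657 to 43849 in EM1084 and 102649 to 106146 in the complemented line. The 2 glutelin genes carried most of that sum. The prolamin marker read 18503 to 19000.0 RPKM in wild type, 3621 to 3764 in EM1084 and 11972.5 to 13963 in the complemented line, and RAG2, a seed albumin, 9005 to 10336, 1368 to 1623 and 3339 to 3449, so for both the complemented line lay below wild type. In RNA from whole seeds, fewer cells of a type and less RNA per cell cannot be told apart.

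Transcripts of 4 genes made up nearly the whole family in every library. GBSSI, SSIIIa, SSI and SSIIa together held 97.8% to 97.9% of the summed RPKM of the 10 genes in wild type, 98.3% to 98.4% in EM1084 and 98.3% to 98.6% in the complemented line. Averaged over the 9 libraries, GBSSI stood at 1323 RPKM, above 99.7% of the genes tested, SSIIIa at 214 RPKM (above 98.9%), SSI at 187 RPKM (above 98.7%) and SSIIa at 84.2 RPKM (above 96.8%). SSIIc and SSIVb, both at a mean of 13.7 RPKM, formed a middle tier. GBSSII and SSIIIb lay at 2.50 and 1.40 RPKM, and SSIVa and SSIIb never reached 1 RPKM in a library. Green tissue markers were low as well. The 6 genes for Rubisco small subunit and chlorophyll-binding protein, 2 of which passed the filter, summed to 3.03 to 3.42 RPKM in wild type, 4.47 to 5.43 in EM1084 and 4.04 to 6.60 in the complemented line, where 1 of them was at 0 in every library. Their part in the values of the leaf forms was not tested.

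The order of the levels was GBSSI, SSIIIa, SSI, SSIIa, SSIIc, SSIVb, GBSSII, SSIIIb, SSIVa, SSIIb in wild type. In that order GBSSII and SSIIIb were the only neighbours whose libraries overlapped. In EM1084 SSIVb stood above SSIIc, and no neighbours overlapped. In the complemented line the mean of SSI stood above that of SSIIIa, and the mean of SSIVb above that of SSIIc. The ranges of both pairs overlapped between libraries, but SSI exceeded SSIIIa within each library (SSIIIa to SSI 0.943 to 0.964). The genes lie on 8 chromosomes, 3 of them (GBSSI, SSI and SSIIa) on chromosome 6, with 5 on each strand.

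**Figure D1:**
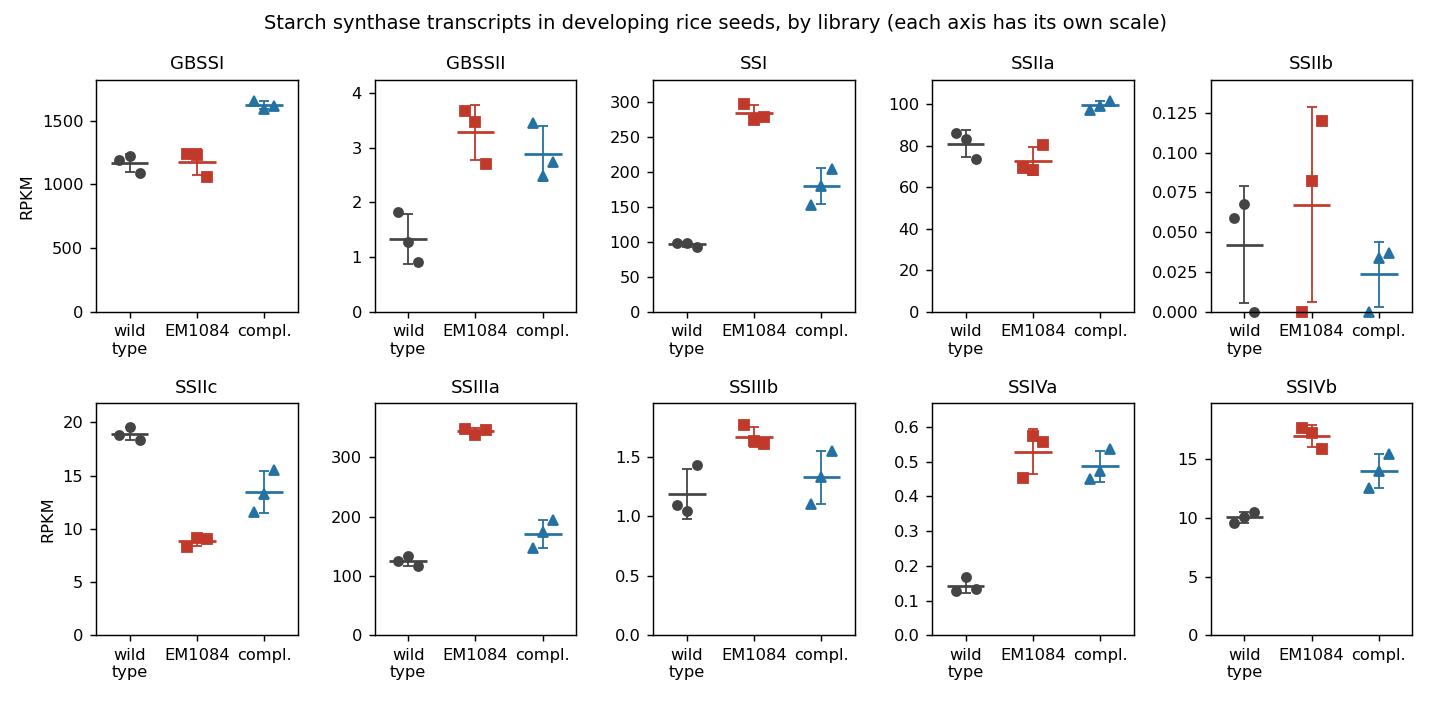
RPKM of each of the 10 starch synthase genes in the 3 wild type (circles), 3 EM1084 (squares) and 3 complemented (triangles) libraries; horizontal lines are group means and error bars the SD over n = 3, and each panel has its own axis starting at 0. SSI and SSIIIa are highest in EM1084, SSIIc is lowest there, and GBSSI is highest in the complemented line.

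The make-up of the family differed between genotypes on RPKM as deposited. Shares within a library do not change when all its values are multiplied by the same factor. Quantile normalization does change them, with log2 changes of GBSSI, SSI and SSIIa in EM1084 against wild type of 0.22, 0.88 and -0.98. As deposited these were 0.00, 1.55 and -0.16. GBSSI took 77.6% to 77.9% of the family's RPKM in wild type, 58.9% to 63.3% in EM1084 and 75.1% to 79.5% in the complemented line. The EM1084 libraries lay apart from the others, while wild type lay inside the range of the complemented line. SSIIIa took 8.20% to 8.54%, 17.3% to 19.3% and 7.04% to 8.98% in the same order, and here too wild type fell within the complemented range. SSI took 6.26% to 6.60% in wild type, 14.2% to 15.6% in EM1084 and 7.37% to 9.52% in the complemented line, so all 3 genotypes were separate. The amylose-forming GBSSI thus held a smaller part, and the 2 amylopectin-forming genes SSI and SSIIIa a larger part, of the family's transcripts in EM1084 than in either of the other genotypes. The share of SSIIa was 5.24% to 5.60%, 3.47% to 4.47% and 4.66% to 4.77%. SSIIc took 1.22% to 1.31% of the family in wild type, 0.419% to 0.504% in EM1084 and 0.554% to 0.719% in the complemented line, without overlap. These shares are descriptions and carry no test.

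**Figure D2:**
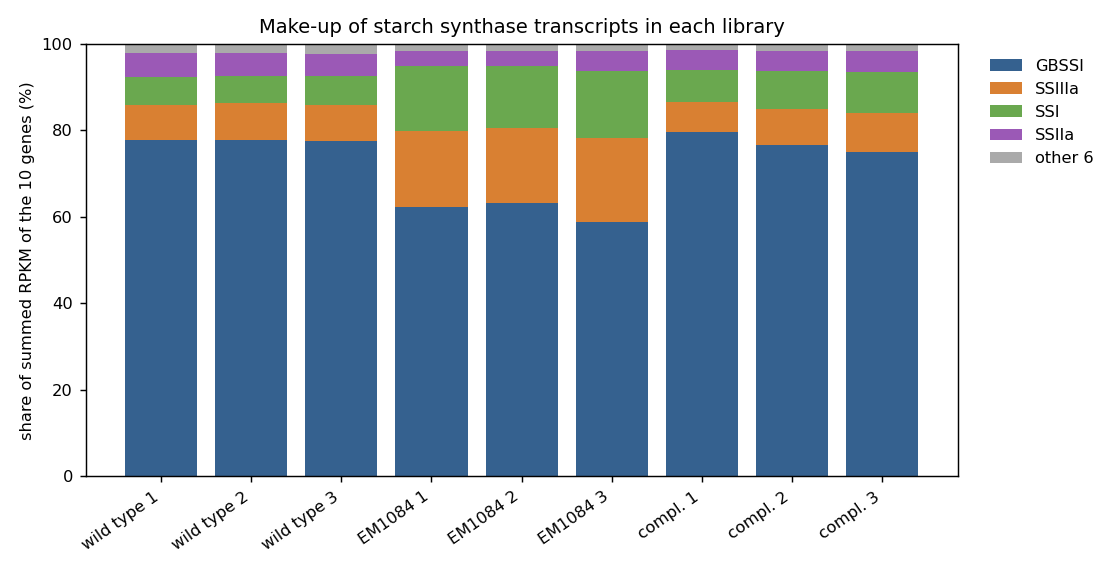
Stacked bars give the share, in percent, of each gene in the summed RPKM of the 10 starch synthase genes for each of the 9 libraries; the grey cap holds the other 6 genes. The GBSSI part is 58.9% to 63.3% in the EM1084 libraries and 75.1% to 79.5% in the others.

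The summed level of the family was 1407 to 1571 RPKM in wild type, 1793 to 1985 in EM1084 and 2077 to 2156 in the complemented line. As a part of the mapped reads this was 0.450% to 0.503%, 0.628% to 0.685% and 0.658% to 0.692%. The smallest sum of each line lay above the largest of wild type, as did the share of reads outside the storage protein genes.

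GBSSI (LOC_Os06g04200, chromosome 6, 1765622 to 1770656, plus strand), known as the Waxy gene and the source of grain amylose, was the most abundant member in every library. Wild type held 1194, 1224 and 1092 RPKM of it, and the mutant libraries 1239, 1231 and 1057 RPKM. The complemented libraries held 1658, 1591 and 1620 RPKM. Wild type and EM1084 overlapped throughout, whereas all complemented libraries lay above both. The log2 change was 0.00 in EM1084 against wild type (95% interval -0.16 to 0.17, limma adjusted p = 0.96), beside a median of 1.06 over all tested genes. GBSSI rose by 0.47 (SE 0.08) in the complemented line against EM1084 (adjusted p = 0.00025) and by 0.47 against wild type (adjusted p = 0.00011).

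The direction of GBSSI against wild type rested on the scaling of libraries. Under median-of-ratios scaling, which brings the typical gene to a like level in all libraries, the gene fell by 1.37 on the log2 scale in EM1084 (adjusted p = 4.7e-08) and by 0.49 in the complemented line (adjusted p = 0.00024). Under quantile normalization it was 0.22 higher in EM1084 (adjusted p = 0.022) and 0.69 higher in the complemented line (adjusted p = 8.7e-06). Scaling outside the storage protein genes gave -0.64 in EM1084 (adjusted p = 0.00016) and 0.14 in the complemented line (adjusted p = 0.27). In EM1084 9.18% of the tested genes had a lower log2 change than GBSSI before any rescaling. That share was 6.32% with median-of-ratios factors, 7.39% with scaling outside the storage protein genes and 63.1% after quantile normalization. Its rise in the complemented line over EM1084 was called under all 4 scalings.

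GBSSII (LOC_Os07g22930, chromosome 7, 12916277 to 12924325, minus strand), the granule-bound form of tissues such as leaf and pericarp, read 1.82, 1.27 and 0.909 RPKM in wild type. It read 2.71 to 3.67 RPKM in EM1084 and 2.48 to 3.46 RPKM in the complemented line, and both lines lay above wild type. GBSSII rose by 0.89 in EM1084 (SE 0.18, adjusted p = 0.00036) and by 0.75 in the complemented line (adjusted p = 0.0017) against wild type. The 2 lines differed by -0.14 (95% interval -0.52 to 0.24, adjusted p = 0.53). Median-of-ratios scaling made the changes against wild type -0.03 and 0.13, and neither was called. Wild type rested on 17 to 62 reads, against 137 to 202 in the lines.

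SSI (LOC_Os06g06560, chromosome 6, 3079059 to 3086808, minus strand), which makes the short chains of amylopectin, read 98.2, 98.3 and 92.8 RPKM in wild type. In EM1084 it read 298, 275 and 279.7 RPKM, and in the complemented line 154, 181 and 205 RPKM. The 3 genotypes did not overlap, and EM1084 was the highest. SSI rose 2.95-fold in EM1084 over wild type (log2 change 1.55, SE 0.10, adjusted p = 1e-08), more than 75.4% of the tested genes. It fell by 0.67 on the log2 scale in the complemented line against EM1084 (SE 0.10, adjusted p = 8.8e-05) and stayed 0.88 above wild type (adjusted p = 3.6e-06).

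The rise of SSI in EM1084 was called under all 4 scalings, from 0.18 under median-of-ratios scaling (adjusted p = 0.049) to 0.88 under quantile normalization and 0.91 outside the storage protein genes. SSI in the complemented line against wild type turned to -0.07 under median-of-ratios scaling (adjusted p = 0.4).

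SSIIa (LOC_Os06g12450, chromosome 6, 6748358 to 6753338, plus strand), known as the ALK gene, elongates chains of intermediate length and sets gelatinization temperature. Its libraries read 86.1, 83.1 and 73.7 RPKM in wild type, 69.0, 68.3 and 80.1 RPKM in EM1084 and 97.1, 99.1 and 102 RPKM in the complemented line. EM1084 3 lay inside the wild type range, and the complemented libraries lay above the rest. The log2 change in EM1084 was -0.16 (95% interval -0.36 to 0.04, adjusted p = 0.12). Without wild type 3 it was -0.22 (adjusted p = 0.04) and without EM1084 3 it was -0.23 (adjusted p = 0.037). SSIIa was called lower in EM1084 under the other scalings, with values from -1.52 to -0.80. It rose by 0.45 (SE 0.09, adjusted p = 0.001) in the complemented line against EM1084, and by 0.86 under median-of-ratios scaling. Against wild type it rose by 0.29 (adjusted p = 0.01), but median-of-ratios scaling made this -0.66 (adjusted p = 2.4e-05), and the other scalings -0.03 and -0.04.

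Within a library SSIIa kept closer to GBSSI than to SSI. The ratio of GBSSI to SSIIa was 13.9 to 14.8 in wild type, 13.2 to 18.0 in EM1084 and 15.9 to 17.1 in the complemented line, and EM1084 overlapped both others. SSI to SSIIa was 1.14 to 1.26, 3.49 to 4.32 and 1.58 to 2.02, with no overlap.

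SSIIc (LOC_Os10g30156, chromosome 10, 15673128 to 15681124, plus strand), another gene of the SSII class, was the only member called lower in EM1084 on RPKM as deposited. It read 18.8, 19.6 and 18.4 RPKM in wild type, 8.33, 9.11 and 9.03 RPKM in EM1084 and 11.6, 13.3 and 15.5 RPKM in the complemented line. The genotypes did not overlap, and the complemented line lay between the others. In EM1084 the mean was 0.466 times that of wild type (log2 change -1.02, SE 0.12, adjusted p = 2.2e-06), and 2.30% of the tested genes had a lower change. SSIIc rose by 0.55 in the complemented line against EM1084 (SE 0.12, adjusted p = 0.0013), and it stayed 0.47 below wild type (log2 change -0.47, adjusted p = 0.0022). All 3 calls held under the 4 scalings. The ratio of SSIIa to SSIIc within a library was 4.01 to 4.58 in wild type, 7.49 to 8.87 in EM1084 and 6.55 to 8.40 in the complemented line, so both lines lay above wild type and overlapped each other.

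SSIIb (LOC_Os02g51070, chromosome 2, 31232888 to 31238210, minus strand), the SSII form better known from leaves, rested on 0 to 3 reads a library. It was listed at 0 in wild type 3, EM1084 1 and complemented 1, where 3 reads would give 0.324, 0.146 and 0.104 RPKM. No difference between genotypes was detectable at this depth, and in the fit without a filter the adjusted p was 0.61, 0.43 and 0.73 in the 3 comparisons.

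SSIIIa (LOC_Os08g09230, chromosome 8, 5352105 to 5363367, plus strand), the SSIII form of the endosperm, makes long amylopectin chains, and its loss gives floury grain. It read 126, 134 and 117 RPKM in wild type, 348, 337 and 347 RPKM in EM1084 and 147, 174 and 194 RPKM in the complemented line. EM1084 stood far above the other 2 genotypes, which did not overlap each other. SSIIIa rose 2.73-fold in EM1084 (log2 change 1.44, SE 0.10, adjusted p = 2e-08), and fell by 1.01 in the complemented line against EM1084 (SE 0.10, adjusted p = 2.5e-06). It was 0.44 above wild type in the complemented line (adjusted p = 0.0012). Under median-of-ratios scaling these values were 0.07 (adjusted p = 0.38), -0.59 (adjusted p = 3.7e-05) and -0.52 (adjusted p = 5.8e-05), so the middle one kept both direction and call. Quantile normalization and scaling outside the storage protein genes kept the first, at 0.82 and 0.80, and the second, at -0.78 and -0.70, but lost the third, at 0.04 (adjusted p = 0.71) and 0.10 (adjusted p = 0.41).

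SSIIIb (LOC_Os04g53310, chromosome 4, 31750955 to 31759581, minus strand), the SSIII form of leaves, read 1.04 to 1.43 RPKM in wild type, 1.61 to 1.77 in EM1084 and 1.10 to 1.55 in the complemented line. EM1084 lay above wild type, and wild type overlapped the complemented line. No comparison was called on RPKM as deposited, with log2 changes of 0.29 (adjusted p = 0.077), -0.20 (adjusted p = 0.26) and 0.09 (adjusted p = 0.59). The first passed without wild type 3 (0.37, adjusted p = 0.042). Its direction turned under median-of-ratios scaling (-0.53, adjusted p = 0.01) and quantile normalization (-0.72, adjusted p = 0.0012), where SSIIIb was called lower. SSIIIa to SSIIIb was 82.0 to 129 in wild type, 197 to 215 in EM1084 and 125 to 133 in the complemented line, so EM1084 stood apart. GBSSI to GBSSII was 658 to 1201, 338 to 390 and 479.5 to 642, with all 3 genotypes apart. In EM1084 the SSIII pair thus leaned further towards the endosperm form than in wild type, and the GBSS pair less far.

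In EM1084 SSI and SSIIIa rose by 1.55 and 1.44, while from EM1084 to the complemented line they fell by 0.67 and by 1.01; the differences between the genes were not tested. The ratio of SSIIIa to SSI was 1.28, 1.37 and 1.26 in wild type and 1.17, 1.22 and 1.24 in EM1084. It was 0.955, 0.964 and 0.943 in the complemented line, below all other libraries. Their ratios to GBSSI showed the shift against the amylose gene. GBSSI to SSI was 11.8 to 12.4 in wild type, 3.78 to 4.47 in EM1084 and 7.89 to 10.8 in the complemented line, without overlap. GBSSI to SSIIIa was 9.12 to 9.48, 3.05 to 3.66 and 8.37 to 11.3, where wild type lay within the complemented range.

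**Figure D3:**
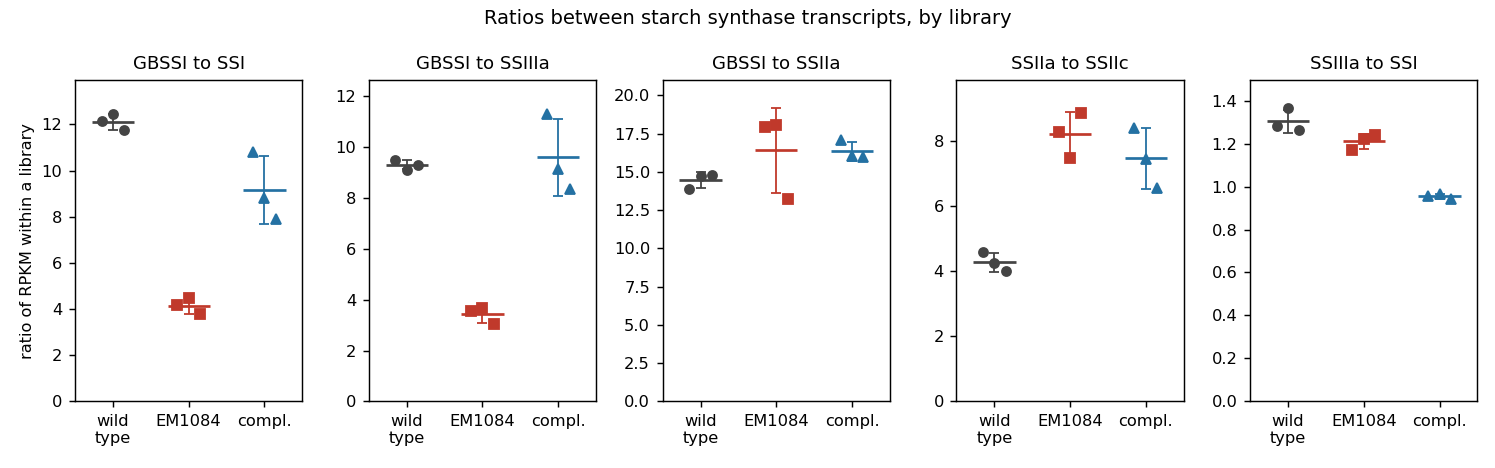
Ratios of RPKM between 2 starch synthase genes within each library, with group means and SD (n = 3), on axes that start at 0. GBSSI to SSI and GBSSI to SSIIIa are lowest in EM1084 (3.78 to 4.47 and 3.05 to 3.66), and SSIIa to SSIIc is lowest in wild type (4.01 to 4.58).

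SSIVb (LOC_Os05g45720, chromosome 5, 26485807 to 26494112, plus strand) is 1 of 2 genes of the class that, in Arabidopsis, starts new starch granules. It read 9.60 to 10.5 RPKM in wild type, 15.9 to 17.7 RPKM in EM1084 and 12.6 to 15.5 RPKM in the complemented line. SSIVb rose 1.69-fold in EM1084 (log2 change 0.70, SE 0.11, adjusted p = 3.9e-05), below the median gene, and turned to -0.58 under median-of-ratios scaling (adjusted p = 0.00026). In the complemented line the log2 change was -0.26 against EM1084 (adjusted p = 0.054), which passed without wild type 3 (adjusted p = 0.047) or without complemented 3 (adjusted p = 0.031). It was 0.44 above wild type (adjusted p = 0.0022), and -0.46 under median-of-ratios scaling (adjusted p = 0.0016).

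SSIVa (LOC_Os01g52250, chromosome 1, 30030997 to 30041476, minus strand) was far lower, with 4 to 8 reads in wild type, 30 to 45 in EM1084 and 42 to 47 in the complemented line. These gave 0.128 to 0.168, 0.454 to 0.575 and 0.451 to 0.535 RPKM, and wild type lay below both lines. Under the fit without a filter on low values, SSIVa was called higher than wild type in EM1084 (log2 change 0.42 on the log2(RPKM + 1) scale, which understates low genes, adjusted p = 0.0048) and in the complemented line (0.38, adjusted p = 0.011). The table lists LOC_Os01g52240, a chlorophyll-binding protein gene on the opposite strand, over part of the same stretch. That gene read 0.0897 to 0.982 RPKM in wild type and 0 to 0.591 in EM1084, which overlapped, and was listed at 0 in the complemented libraries. The labels do not state whether counting used strand, so the value of SSIVa is uncertain.

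**Figure D4:**
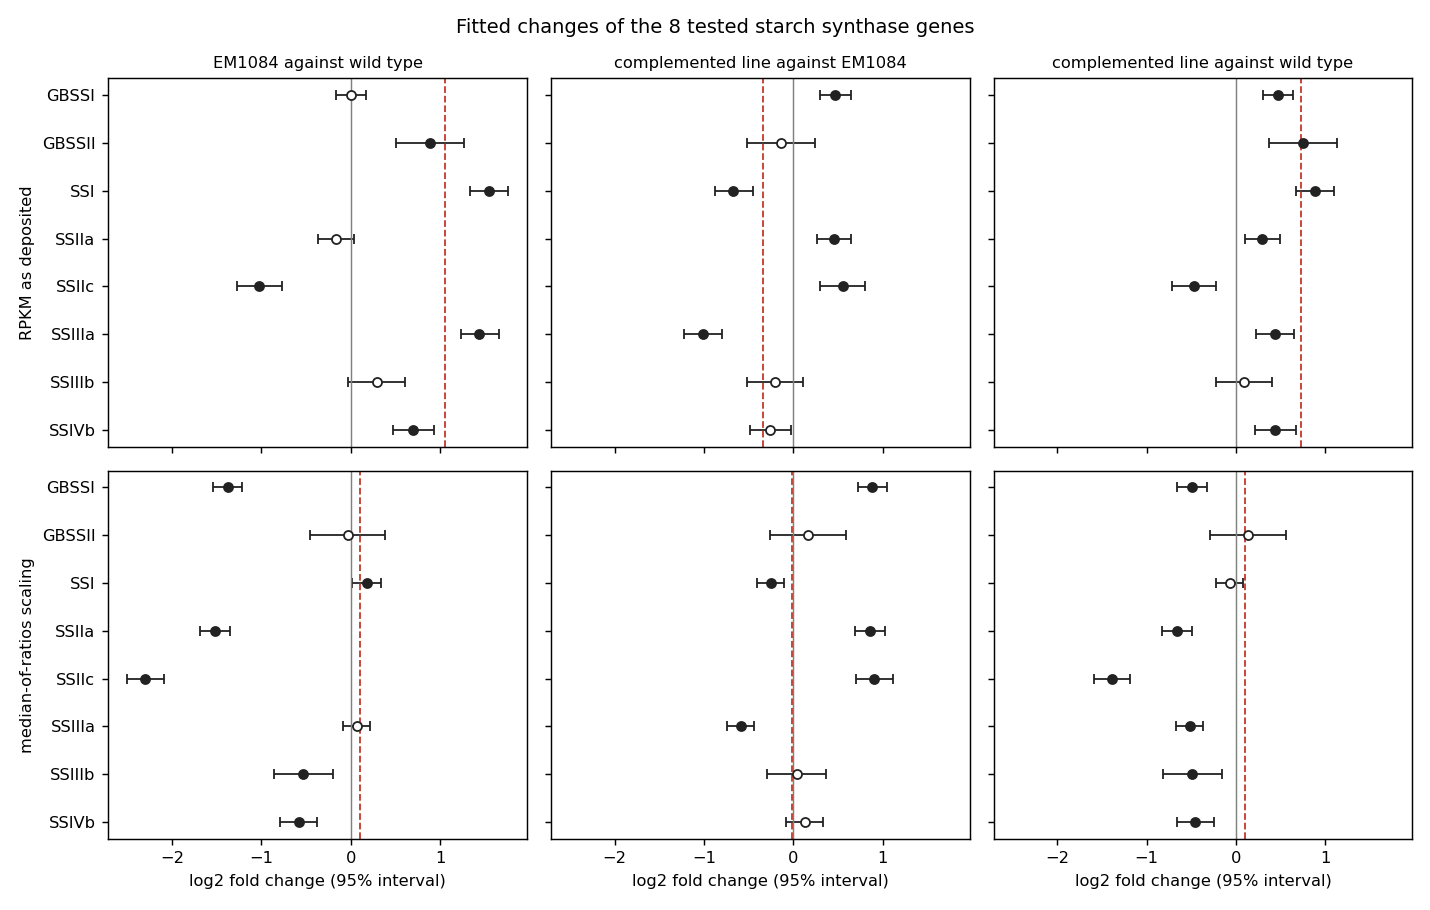
Fitted log2 fold changes with 95% intervals for the 8 starch synthase genes that passed the filter on low values, in 3 comparisons, on RPKM as deposited (top) and after median-of-ratios scaling (bottom); filled points passed the limma test (adjusted p under 0.05), and the dashed line is the median of all genes tested. In the comparison of the complemented line with EM1084, GBSSI, SSIIa and SSIIc lie above 0 and SSI and SSIIIa below it in both rows.

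Counted over the family, 8 of the 10 genes passed the filter of at least 1 RPKM in at least 3 libraries. In EM1084 against wild type 4 rose (SSI, SSIIIa, GBSSII and SSIVb), beside 82.7% of all genes tested, and 1 fell (SSIIc), beside 5.33%. Their median log2 change was 0.49, against 1.06 over all genes. The libraries did not overlap for 5 higher genes (beside 82% of all genes) and 1 lower (beside 5.43%). With median-of-ratios scaling 1 rose (beside 32.6% of all genes) and 5 fell (beside 26.4%). Quantile normalization gave 3 higher (beside 28.1%) and 4 lower (beside 27.3%), and scaling outside the storage protein genes 3 higher (beside 62.6%) and 3 lower (beside 10.8%). SSI higher and SSIIc lower were the calls shared by all 4 scalings. How many of all genes shared a call under all 4 was not computed.

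In the complemented line against EM1084, 3 genes rose (GBSSI, SSIIa and SSIIc), beside 10.2% of all genes tested, and 2 fell (SSI and SSIIIa), beside 45.3%. The median was -0.17, against -0.34 for all genes. Libraries did not overlap for the 3 higher genes (beside 12.5% of all genes) and for 4 lower (beside 53.1%). These 5 calls, 3 higher and 2 lower, were shared by all 4 scalings, with 18.1% of all genes called higher and 18.9% called lower under median-of-ratios scaling. These shares were 20.6% and 20.5% after quantile normalization, and 15.3% and 23.5% with scaling outside the storage protein genes. The share of all genes called alike under all 4 scalings was not computed.

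In the complemented line against wild type 6 genes rose, beside 72% of all genes tested, and 1 fell (SSIIc), beside 7.37%, with a median of 0.44 against 0.73. These 6 higher and 1 lower were also the genes without overlap (beside 71.2% and 7.51% of all genes). Median-of-ratios scaling gave 0 higher (beside 29.8% of all genes) and 6 lower (beside 25%). Quantile normalization gave 2 higher (beside 26.3%) and 3 lower (beside 25.4%), and scaling outside the storage protein genes 2 higher (beside 57.7%) and 1 lower (beside 11.2%). SSIIc lower was the call shared by all 4 scalings, and the share of all genes that were called lower under all 4 was not computed. EM1084 and the complemented line are compared with the same 3 wild type libraries, so these 2 sets of changes are not independent.

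Within the complemented line, library 1 was the lowest and library 3 the highest for 6 of the 8 tested genes, the exceptions being GBSSI and GBSSII. SSI read 154 RPKM in complemented 1 and 205 in complemented 3, and SSIIIa 147 and 194. Storage protein genes took 47.2% of the mapped reads in complemented 1 and 42.6% in complemented 3. Wild type 3, the shallowest library, was the lowest of its group for 6 of the 8. The part of storage transcripts and depth in this spread was not tested.

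Markers of the embryo and of the aleurone, the outer layer of the endosperm, also differed between genotypes. Of 4 such genes 3 passed the filter, and the 4 summed to 228.5 to 235 RPKM in wild type, 1516 to 1819 in EM1084 and 1476 to 1935 in the complemented line. The sums of both lines lay above wild type and overlapped each other. Oleosin genes OLE18 and OLE16 carried most of the sum. OLE18 had means of 66.5, 986 and 876 RPKM in wild type, EM1084 and the complemented line, and OLE16 had 113, 643 and 781. LEA3 differed less, with 52.1, 74.9 and 107 RPKM. OSH1, a shoot meristem gene of the embryo, had a mean of at most 0.407 RPKM in a genotype. The part of tissue make-up in the starch synthase values was not tested.

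The other starch genes, from substrate supply to chain trimming, were counted from a list of 18 loci, of which 17 are rows of the table and all 17 were tested. In EM1084 against wild type 12 of them rose and 1 fell, with a median log2 change of 0.59, beside 82.7% and 5.33% of all genes and a median of 1.06. In the complemented line against EM1084 7 rose and 5 fell (median 0.09), beside 10.2% and 45.3% of all genes (median -0.34). Against wild type 14 rose and 1 fell (median 0.98), beside 72% and 7.37% (median 0.73). Median-of-ratios scaling turned these counts to 3 higher and 12 lower (beside 32.6% and 26.4% of all genes), 10 and 0 (beside 18.1% and 18.9%), and 7 and 7 (beside 29.8% and 25%). Quantile normalization gave 8 and 5 (beside 28.1% and 27.3%), 8 and 2 (beside 20.6% and 20.5%), and 13 and 1 (beside 26.3% and 25.4%). Scaling outside the storage protein genes gave 5 and 5 (beside 62.6% and 10.8%), 9 and 0 (beside 15.3% and 23.5%), and 11 and 1 (beside 57.7% and 11.2%). The 2 most abundant were AGPS2, the small subunit of the enzyme that makes ADP-glucose, and BT1, its plastid importer. AGPS2 stood at 2363.5 ± 131, 2761 ± 125 and 2565 ± 157 RPKM in wild type, EM1084 and the complemented line (SD, n = 3). BT1 stood at 2237 ± 112, 2313.5 ± 572 and 1597 ± 54.9 RPKM (SD, n = 3), a log2 change of -0.48 (adjusted p = 0.0035) in the complemented line against wild type.

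Likeness of pattern was measured as the distance between genes in the plane of the 2 log2 changes against wild type, on RPKM as deposited, taken over the 3 genotype means. The pathway gene nearest to both SSI and SSIIIa was ISA2, an isoamylase-type debranching gene, at distances of 0.30 and 0.35. ISA2 had 31.5 ± 1.90 RPKM in wild type (SD, n = 3). EM1084 had 77.8 ± 2.72 RPKM of it and the complemented line 53.6 ± 1.52 RPKM. For GBSSI and SSIIa the nearest was AGPL4, a large subunit gene of ADP-glucose pyrophosphorylase with a mean of at most 1.06 RPKM in a genotype, at 0.28 and 0.30. The log2(RPKM + 1) scale understates changes of so low a gene. Against wild type AGPL4 was called neither in EM1084 (adjusted p = 0.45) nor in the complemented line (adjusted p = 0.22). Of all tested genes, 10.2% lay nearer to SSI than ISA2 and 7.70% nearer to SSIIIa. For AGPL4 the shares were 1.64% with GBSSI and 1.41% with SSIIa, so in each case many other genes are as near.

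**Figure D5:**
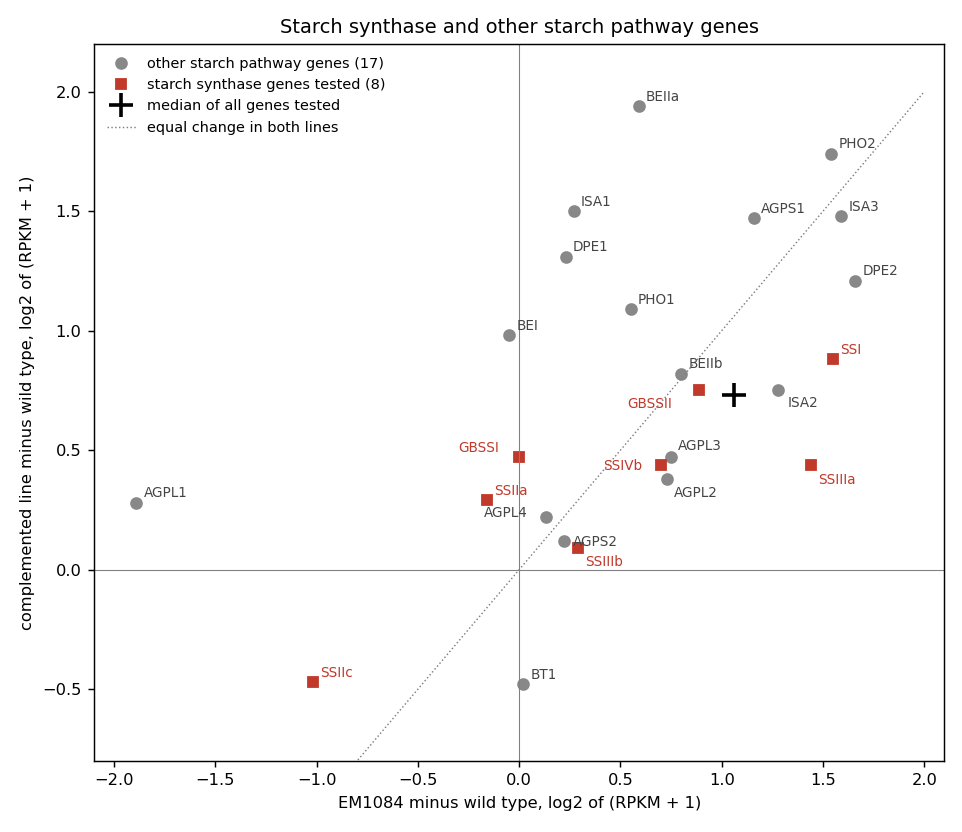
Each point is a gene, placed by its fitted log2 change in EM1084 (x axis) and in the complemented line (y axis) against the same wild type libraries; squares are the 8 tested starch synthase genes, circles 17 other starch pathway genes, and the cross marks the median of all genes tested (1.06 and 0.73). SSI and SSIIIa lie below the line of equal change at right, GBSSI and SSIIa above it near 0 on the x axis, and SSIIc has negative values on both axes.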

How the data were processed

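Per the labels' protocols, total RNA of seeds was made into libraries using ScriptSeq v2. The authors deposited 1 table of RPKM values with a column for each of 9 libraries, per the file headers. Its coordinates are used as listed. Aligner, counter and build were not given in the sources used here. Mapped totals and read numbers were derived from the steps of the RPKM values (100% of 281367 values whole within 0.001 reads) and checked on simulated data. Reads are not independent molecules, so read numbers bound counting error only.

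Genes with at least 1 RPKM in at least 3 libraries (15450, leaving 15813) were fitted as log2(RPKM + 1) with limma 3.58.1 (trend, robust) in R 4.3.3, all 9 libraries in 1 fit, two-sided, with Benjamini-Hochberg adjustment over all genes tested and a threshold of 0.05. Every adjusted p given is from this kind of fit, and fold changes on this scale understate low genes. The limma fit was tested on simulated data. P-values measure the spread between these libraries. The alternatives were a pseudocount of 0.1, no filter, median-of-ratios scaling, quantile normalization, scaling to reads outside 46 storage protein loci, a replicate block and leaving out each library. These 4 scalings (RPKM as deposited and 3 others) are meant where scalings are counted.

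The table holds no gene names, so loci were named from general knowledge. Of the 10 family names 5 occur in the RefSeq gene table (assembly ASM3414082v1), all 5 on the same chromosome as the locus. The members and gene lists were chosen with earlier results of these data known. All members are named, and of the other starch genes those nearest to the 4 most abundant members and the 2 most abundant, by rule. The storage protein loci were listed after the table was opened. Of the 18 other starch loci, PUL was not analysed here.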

Additional observations from a re-analysis of the deposited data

How the results depend on the processing

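The calls among 24 member results (8 genes in 3 comparisons) were the same with a pseudocount of 0.1, with no filter and with the replicate block, where SSI in EM1084 against wild type gave 1.55. Same-numbered libraries showed no shared deviation over the tested genes (correlations -0.03 to 0.06 over 9 same-numbered pairs, 0 over 0.1). This cannot show whether the numbers pair libraries in a way that touches few genes, and the labels do not state what they stand for. Of 216 values with a library left out, 211 kept their call and 5 newly passed. The count called higher ran from 4 to 5 and lower from 1 to 2 in EM1084 against wild type, and lower from 2 to 3 in the complemented line against EM1084, with 3 higher throughout. Against wild type that line kept 6 higher and 1 lower. Scaling moved more. For EM1084 against wild type, median-of-ratios scaling gave 1 higher and 5 lower, quantile normalization 3 and 4, and scaling outside storage genes 3 and 3. The same settings gave the complemented line, set against wild type, 0 higher and 6 lower, 2 and 3, and 2 and 1. For the complemented line against EM1084 each gave 3 and 2.

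Log2 changes that turned over, and were called before or after, in EM1084 against wild type under median-of-ratios scaling were GBSSI -1.37, GBSSII -0.03, SSIIIb -0.53 and SSIVb -0.58. Under quantile normalization they were GBSSII -0.19, SSIIIb -0.72 and SSIVb -0.47, and outside storage genes GBSSI -0.64. In the complemented line against wild type, median-of-ratios scaling gave GBSSI -0.49, SSI -0.07, SSIIa -0.66, SSIIIa -0.52, SSIIIb -0.49 and SSIVb -0.46. Quantile normalization gave GBSSII -0.04, SSIIa -0.03, SSIIIb -0.69 and SSIVb -0.30, and scaling outside storage genes SSIIa -0.04. Changes called neither before nor after also turned. Scaling outside storage genes gave SSIIIb -0.09 in EM1084 and -0.10 in the complemented line against wild type. With EM1084 as the baseline of the complemented line, median-of-ratios scaling, quantile normalization and scaling outside storage genes gave GBSSII 0.16, 0.15 and 0.09 and SSIVb 0.13, 0.17 and 0.03, and the first and second of these gave SSIIIb 0.04 and 0.03. The scalings differ by construction in which genes they hold level. Depth limits SSIIb, SSIVa, GBSSII and SSIIIb, with at most 62 reads in a wild type library.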
